A study of Rattus norvegicus with 23 samples.

Results

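Microglia of rat pups that had received lipopolysaccharide (LPS) without hypoxia-ischemia (HI) were compared with microglia of Sham pups over all 20301 genes of the deposited table. The members were the 5 LPS and 6 Sham libraries, 11 of the 23 in the series, taken by their group labels. All pups were Wistar rats of both sexes at postnatal day 7. The LPS pups were injected intraperitoneally with Escherichia coli O55:B5 LPS at 0.1 mg/kg 4 h before a sham operation, and the Sham pups had the same neck incision under isoflurane. For Sham no injection is listed, so the comparison also sets injected against uninjected pups. All pups were held at normothermia for 5 h, and cells were taken with CD11b/c magnetic beads at 24 h after the operation, which is later than the first hours in which LPS signaling peaks. Each of these libraries came from the entire brain of 1 pup, whereas the 6 NaCl/HI and 6 LPS/HI libraries, with HI after saline or LPS, each came from 2 pooled ipsilateral hemispheres. Tissue and pooling therefore did not differ between Sham and LPS.

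Microglia are the resident macrophages of the brain parenchyma and depend on CSF1R signaling, while TGF-beta signaling keeps their resting program, in which genes such as P2ry12, Tmem119 and Cx3cr1 are expressed. LPS, from the outer membrane of Gram-negative bacteria, is bound by CD14 and by the TLR4/MD-2 complex (Ly96 encodes MD-2). Signaling through MyD88 and NF-kB induces cytokine genes within hours and is then curbed by inhibitors such as Nfkbia, Tnfaip3 and Irak3, and type I interferon made downstream of TLR4 induces antiviral genes. In the first postnatal weeks microglia also divide, so cell-cycle genes are expressed in the healthy brain.

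The deposited values are rlog values, a log2 scale that draws weakly expressed genes toward their mean, from which the authors removed 3 surrogate variables. Levels are not per transcript length, so differences between groups are compared here. Genes are set against each other by level where calls are split by quartile of the rlog value and where markers are set against the library median. Counts and depth are unknown. The median of a library lay between 7.75 and 7.82 in all 23 libraries. Markers of microglia were above the library median in all 11 libraries, with P2ry12 from 13.50 to 14.41, Cx3cr1 from 15.38 to 15.70 and Tmem119 from 11.85 to 13.20. Csf1r, which other macrophages also express, ran from 16.33 to 16.64. The sex of each pup is not labeled. Kdm5d, a Y-linked gene named here after its values were seen, ranged from 4.31 to 7.96 in Sham and reached 9.39 in LPS 1 against at most 6.64 in the other LPS libraries. The removal of surrogate variables also acted on Y-linked genes, so sex could not be checked from these values. LPS 4 had the highest value among LPS libraries in 79 of 85 mitosis genes, and Sham 5 the highest among Sham libraries in 81 of them. Library names run from 1 to 12 and from 13 to 23, and the first range held 3 libraries of each group, the second 3 Sham and 2 LPS libraries. Nothing says whether pups of a group shared a litter, so p values measure the spread between these libraries. Removing surrogate variables also took spread out of each group, which can make p values too low. The call used here was an adjusted p under 0.05 in limma, with Benjamini-Hochberg adjustment over all genes, and adjusted p values below are from that fit. The called genes named below were chosen after their values were seen, and 142 of 152 of those the naming rule covers kept their call in every alternative, compared with 58 of 139 called genes that the rule named and that are not shown.

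LPS alone left a broad and shallow change at 24 h. In limma, 3606 genes had an adjusted p under 0.05, which was 17.8% of all genes. Of these, 2072 were higher in LPS (10.2% of all genes) and 1534 lower (7.56%). When each library was centred on its median, the split was 2406 higher and 1128 lower, so the share of higher genes rose from 57.5% to 68.1%. In a fit of only Sham and LPS libraries it was 51.6%, with 2666 higher and 2504 lower of 5170. The median size of a called difference was 0.26 on the log2 scale, and 94.6% of the called differences were below a fold of 1.5. Only 14 genes (0.069%) also passed a fold of 2, 13 of them higher (0.064%) and 1 lower (0.00493%). At a fold of 1.5 there were 196, of which 156 were higher. The 5 LPS values lay entirely above the 6 Sham values in 8.05% of all genes and entirely below them in 5.83%. The calls had the same sign in both ranges of library names for 3604 of the 3606 genes. Over all genes, 32.1% were above 0 in both ranges and 40.9% were below 0 in both. The genes were called on these same libraries, so their agreement is largely fixed by the choice and is no replication. Calls were rarest among weakly expressed genes, with 3.31% called in the lowest quartile of genes by level and 29.1% in the highest. The number of calls was 2395 without LPS 2, and the number past a fold of 2 was 6 without LPS 4 and 22 without Sham 3.

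**Figure D1:**
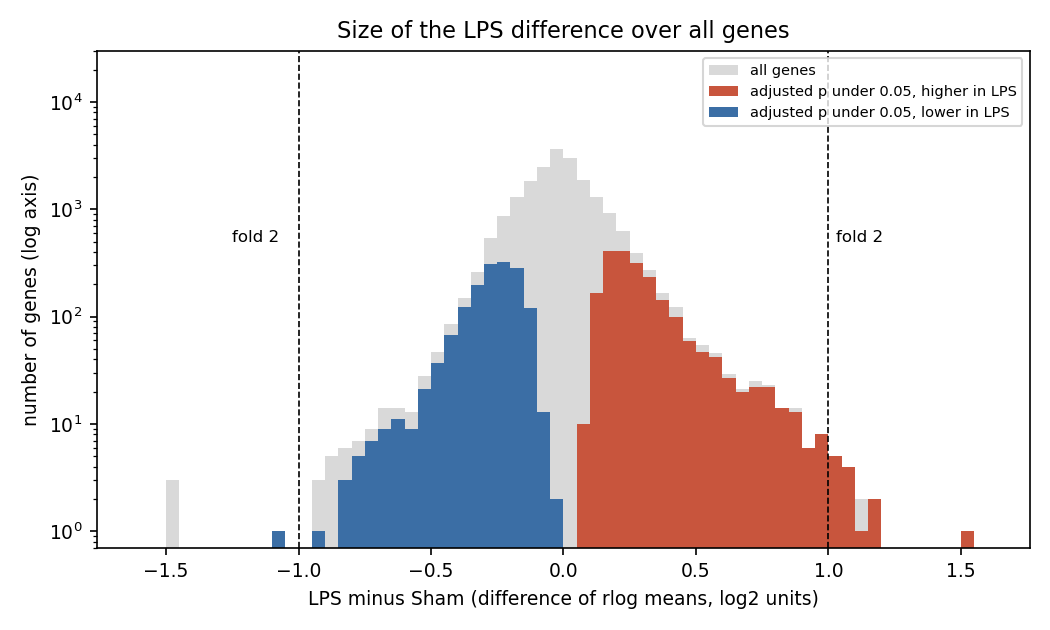
Number of genes (log axis) by the difference LPS minus Sham in steps of 0.05 on the log2 scale, for all 20301 genes (gray), the 2072 called higher (red) and the 1534 called lower (blue). Dashed lines mark a fold of 2, which 13 genes called higher and 1 gene called lower passed.

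The largest rise was that of C3, the central component of complement. Its rlog values ran from 10.74 to 11.19 with a median of 11.08 in the 6 Sham libraries, and at 12.88, 12.91, 12.17, 12.77 and 12.01 in LPS 1 to LPS 5. Every LPS library was above every Sham library, and the difference was 1.52 (SE 0.17, adjusted p = 4.17e-06), or 2.87-fold. Tspo, the outer mitochondrial membrane protein that is the target of neuroinflammation imaging, ran from 9.59 to 10.07 with a median of 9.86 in the 6 Sham libraries, and at 11.04, 11.17, 10.63, 11.24 and 10.62 in LPS 1 to LPS 5. The groups did not overlap, with a difference of 1.10 (SE 0.13, adjusted p = 4.2e-06), or 2.14-fold. Plac8, a small cysteine-rich protein of myeloid and lymphoid cells, ran from 10.24 to 10.81 with a median of 10.35 in the 6 Sham libraries, and at 11.78, 11.39, 11.21, 11.96 and 11.53 in LPS 1 to LPS 5. Sham 1 was the highest Sham library for Plac8, and the difference was 1.17 (SE 0.13, adjusted p = 2.86e-06). Adgrg5, an adhesion G protein-coupled receptor of leukocytes, ran from 6.79 to 7.18 with a median of 6.88 in the 6 Sham libraries, and at 8.36, 7.92, 7.81, 7.67 and 8.16 in LPS 1 to LPS 5, again without overlap, and the difference was 1.07 (SE 0.12, adjusted p = 2.5e-06).

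LOC24906, which the RefSeq gene table calls Lypd8l1, was the exception among the 13 higher genes because its groups overlapped. It ran from 7.29 to 8.08 with a median of 7.82 in the 6 Sham libraries, and at 8.85, 8.47, 8.02, 9.72 and 9.62 in LPS 1 to LPS 5. The mean difference was 1.18 (SE 0.25, adjusted p = 0.00225), but it was 0.45 in the first range of library names and 2.15 in the second. The other 8 higher genes were replication-dependent histone genes, described with the cell cycle. Below the fold of 2, Tnfsf13b, which encodes the B cell survival factor BAFF, differed by 0.95 (SE 0.11, adjusted p = 6.12e-06) and Tlr1, which pairs with TLR2 to sense bacterial lipopeptides, by 0.95 (SE 0.10, adjusted p = 1.25e-06). Tlr1 lay from 8.66 to 8.88 with a median of 8.74 in the 6 Sham libraries, and at 9.76, 9.70, 9.49, 10.01 and 9.53 in LPS 1 to LPS 5, so the gap between the groups was wider than the range of Sham. Adgb, a globin-domain gene, differed by 0.95 (SE 0.22, adjusted p = 0.00405) and Arl5c, a small GTPase gene of the ARF family, by 0.97 (SE 0.22, adjusted p = 0.00423). Neither of these overlapped between groups, which was a condition for naming the largest rises.

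Among the genes called lower, only Ngp, a neutrophil granule protein, passed a fold of 2. It ran from 6.70 to 7.48 with a median of 7.09 in the 6 Sham libraries, and at 6.54, 5.72, 5.88, 5.74 and 6.19 in LPS 1 to LPS 5, and the difference was -1.07 (SE 0.23, adjusted p = 0.00261). Without Sham 6, LPS 2 or LPS 4 its adjusted p passed but its fold was just under 2. Other genes fell by less, without overlap. Kcnj15, an inward rectifier potassium channel, ran from 8.18 to 9.13 with a median of 8.41 in the 6 Sham libraries, and at 7.50, 7.43, 7.53, 7.54 and 7.68 in LPS 1 to LPS 5, a difference of -0.95 (SE 0.15, adjusted p = 0.000136). Lyve1, the hyaluronan receptor of border-associated macrophages, ran from 12.69 to 13.21 with a median of 12.97 in the 6 Sham libraries, and at 12.09, 12.03, 12.17, 11.85 and 12.39 in LPS 1 to LPS 5, a difference of -0.83 (SE 0.11, adjusted p = 3.39e-05). Crybb1, a crystallin gene of early postnatal microglia, ran from 6.57 to 7.18 with a median of 6.67 in the 6 Sham libraries, and at 5.69, 5.93, 6.12, 5.65 and 6.28 in LPS 1 to LPS 5, a difference of -0.83 (SE 0.12, adjusted p = 6.77e-05). In each of these the highest LPS library was below the lowest Sham library, which was a condition for naming the largest falls. Gpd1, the cytosolic glycerol-3-phosphate dehydrogenase, fell by 0.83 on the log2 scale (SE 0.11) and Atp2a3, a calcium pump of the endoplasmic reticulum, by 0.75 (SE 0.10). Rasgrp3, a Ras and Rap activator, fell by 0.69 (SE 0.09), Socs2, an inhibitor of cytokine signaling, by 0.68 (SE 0.10), and Slc43a3, a purine nucleobase transporter, by 0.67 (SE 0.07). Cfap92, a cilia-associated gene, fell by 0.76 (SE 0.10), by 0.46 in the first range of library names and by 1.15 in the second. The row for Mir142, the precursor gene of a hematopoietic microRNA, fell by 0.67 (SE 0.10). This row is the precursor gene in a poly(A)-selected library, so the mature arms were not measured.

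**Figure D2:**
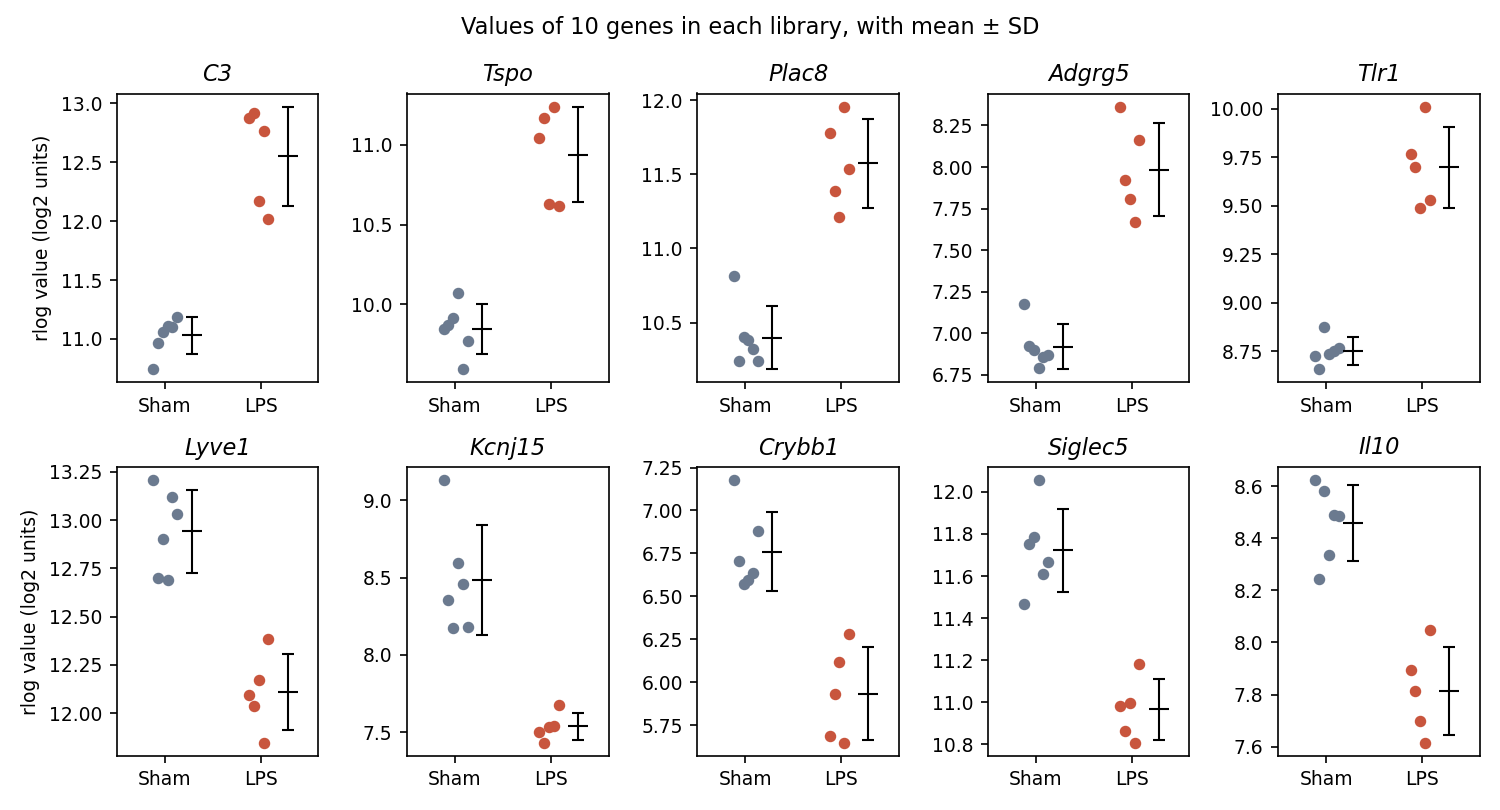
rlog values (log2 units) of 10 genes in the 6 Sham (gray) and 5 LPS (red) libraries, with the mean and SD of each group in black. In the top row every LPS library lies above every Sham library, in the bottom row every LPS library lies below.

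Of 85 measured genes of mitosis and G2/M, 83 were called higher (97.6%, against 10.2% of all genes) and 0 lower. In 79 of the 85 genes the LPS libraries lay entirely above Sham, against 8.05% of all genes. The median difference of the list was 0.63, against -0.014 over all genes. The list mean was 9.81 to 10.16 in Sham and 10.39 to 10.78 in LPS. The count stayed at 82 or 83 with any 1 of the 11 libraries left out, LPS 4 included. The 2 members that did not pass were Hmgb2, a chromatin protein, with a difference of 0.61 (SE 0.26, adjusted p = 0.113), and Fam83d, a spindle protein, with -0.06 (SE 0.06, adjusted p = 0.518). Pttg1, the securin that holds sister chromatids together until anaphase, ran from 8.71 to 9.29 with a median of 8.98 in the 6 Sham libraries, and at 9.98, 10.05, 9.73, 10.04 and 9.83 in LPS 1 to LPS 5, and the difference was 0.96 (SE 0.09, adjusted p = 8.81e-07). Kif22, a chromosome-binding kinesin, ran from 10.17 to 10.63 with a median of 10.35 in the 6 Sham libraries, and at 11.29, 11.28, 11.05, 11.57 and 11.10 in LPS 1 to LPS 5, a difference of 0.90 (SE 0.08, adjusted p = 8.81e-07). Neither gene overlapped between the groups, with Sham 5 the highest Sham library in both. Plk1, the mitotic polo-like kinase, differed by 0.88 (SE 0.08, adjusted p = 9.52e-07) and Spc24, a kinetochore subunit, by 0.89 (SE 0.11, adjusted p = 6.12e-06). Mki67, which encodes the proliferation marker Ki-67, ran from 13.56 to 13.89 with a median of 13.64 in the 6 Sham libraries, and at 14.29, 14.20, 14.14, 14.66 and 14.25 in LPS 1 to LPS 5, a smaller difference of 0.61 (SE 0.10, adjusted p = 0.000148). In these bulk libraries, more dividing cells and more of these transcripts per cell cannot be told apart.

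Promoters of these genes share short motifs, which are shown for Kif22, Pttg1, Mki67 and Plk1 because these are named members of the list with the largest share of calls. CCAAT is the box bound by NF-Y, and TTTGAA is the core of the cell-cycle homology region (CHR) of late cell-cycle promoters. The letters were searched on both strands, and matches are in capitals, where ATTGG and TTCAAA are the reverse complements. In Mki67 one CHR match and one CCAAT match overlap in TTTGAATTGG. The windows are the 250 bases before the RefSeq start in GRCr8, written 5′ to 3′ on the gene's strand, for Kif22 (chr1:191080879-191081128, minus strand), Pttg1 (chr10:28406327-28406576, minus strand), Mki67 (chr1:199952594-199952843, minus strand) and Plk1 (chr1:186147408-186147657, plus strand).
Kif22: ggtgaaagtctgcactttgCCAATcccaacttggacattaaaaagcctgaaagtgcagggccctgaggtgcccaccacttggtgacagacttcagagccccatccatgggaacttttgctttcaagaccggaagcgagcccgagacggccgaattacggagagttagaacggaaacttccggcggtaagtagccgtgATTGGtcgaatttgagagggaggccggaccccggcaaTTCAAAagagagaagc
Pttg1: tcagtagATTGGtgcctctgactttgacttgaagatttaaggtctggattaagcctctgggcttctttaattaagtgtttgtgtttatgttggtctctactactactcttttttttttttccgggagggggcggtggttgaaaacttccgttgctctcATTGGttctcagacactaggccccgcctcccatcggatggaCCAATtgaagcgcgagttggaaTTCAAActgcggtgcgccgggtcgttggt
Mki67: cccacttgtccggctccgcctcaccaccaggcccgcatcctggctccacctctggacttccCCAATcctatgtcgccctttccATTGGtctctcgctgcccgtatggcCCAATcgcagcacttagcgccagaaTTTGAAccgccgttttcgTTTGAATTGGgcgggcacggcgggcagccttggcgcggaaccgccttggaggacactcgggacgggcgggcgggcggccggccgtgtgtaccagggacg
Plk1: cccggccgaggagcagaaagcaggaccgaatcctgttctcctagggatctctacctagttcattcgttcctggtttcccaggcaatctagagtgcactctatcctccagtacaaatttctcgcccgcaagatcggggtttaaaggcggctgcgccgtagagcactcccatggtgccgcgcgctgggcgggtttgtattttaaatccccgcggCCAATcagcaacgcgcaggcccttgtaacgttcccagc
Kif22 had 2 CCAAT and 1 CHR match, Pttg1 3 and 1, Mki67 4 and 2, and Plk1 1 and 0. CCAAT was in 67.1% and CHR in 45.2% of the 73 mitosis genes with a promoter in the table, compared with 34.9% and 12.1% of the 13939 measured genes that have one. A match is a string of letters and not a measured site.

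Of 26 measured replication-dependent histone genes, 25 were called higher (96.2%, against 10.2% of all genes), and the median difference was 0.89. In all 25 the LPS libraries lay entirely above Sham, against 8.05% of all genes. The list mean was 9.56 to 9.90 in Sham and 10.41 to 10.84 in LPS. H3c13 ran from 10.73 to 11.17 with a median of 10.88 in the 6 Sham libraries, and at 12.04, 11.91, 11.95, 12.26 and 11.78 in LPS 1 to LPS 5, a difference of 1.09 (SE 0.13, adjusted p = 7.57e-06). H2ac12 differed by 1.05 (SE 0.15, adjusted p = 6.23e-05), H2ac4 by 1.02 (SE 0.15, adjusted p = 5e-05), Hist1h2bc by 1.02 (SE 0.13, adjusted p = 1.03e-05) and Hist1h2bg by 1.00 (SE 0.14, adjusted p = 4.07e-05). Hist2h3c2, LOC120097726 (H2ac10 in RefSeq) and LOC100910200 (H2bcl1 in RefSeq) were also past a fold of 2, at 1.02, 1.15 and 1.01. Hist1h2ac, at 0.99, and Hist1h3b, at 0.96, were just below it. H2bc1, the testis form of H2B, did not pass, at -0.24 (SE 0.11, adjusted p = 0.132). These genes are near-identical copies, so reads could have been divided among them, and most of their mRNAs lack the poly(A) tail that the library kit selects. In the 24 histone genes with a promoter in the table, CCAAT was present in 87.5%.

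Of 64 genes of DNA replication and G1/S, 34 were higher (53.1%, against 10.2% of all genes) and 1 lower (1.56%, against 7.56%), with a median of 0.24. Fancd2, of interstrand crosslink repair, differed by 0.69 (SE 0.07, adjusted p = 2.09e-06), and Asf1b, a histone chaperone, by 0.67 (SE 0.08, adjusted p = 8.55e-06). Dbf4, the activator of the Cdc7 kinase, differed by 0.50 (SE 0.07) and Rrm1, the large subunit of ribonucleotide reductase, by 0.50 (SE 0.08). The 1 gene that fell was Ccnd2, the G1 cyclin D2, at -0.35 (SE 0.06, adjusted p = 0.000518). Pcna, the replication clamp, at -0.05 (SE 0.08, adjusted p = 0.666), and Cdc45, of the replicative helicase, at -0.02 (SE 0.08, adjusted p = 0.921), did not pass.

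**Figure D3:**
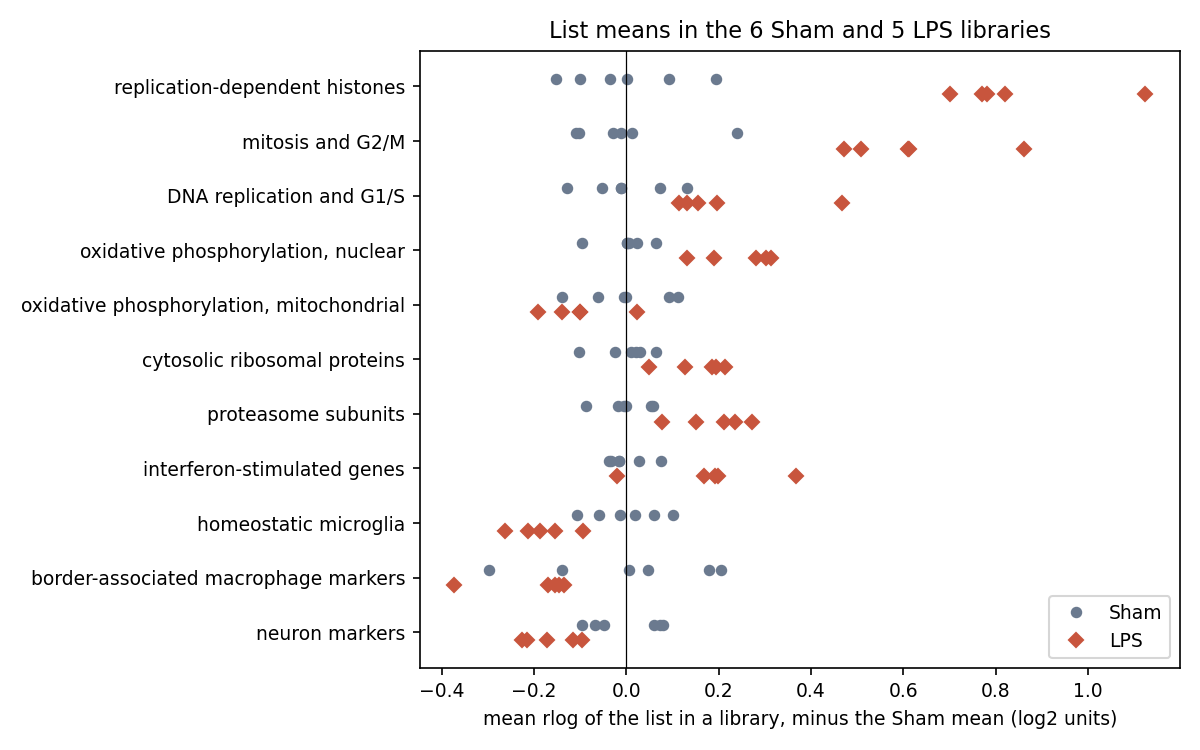
Mean rlog value of each gene list in a library, minus the mean of the 6 Sham libraries (log2 units), for Sham (circles) and LPS (diamonds). In the histone list the LPS libraries lie between 0.70 and 1.12 and in the mitosis list between 0.47 and 0.86, above all Sham libraries. LPS and Sham overlap for the G1/S, cytosolic ribosomal protein, interferon and homeostatic microglia lists. They also overlap for the mitochondrially encoded subunits and for the border-associated macrophage and neuron markers.

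Of 77 nuclear subunit genes of oxidative phosphorylation, 61 were called higher (79.2%, against 10.2% of all genes) and 2 lower (2.6%, against 7.56%). The lower count was 0 or 1 without any 1 library other than Sham 3. The median difference was 0.28, and the list mean was 9.65 to 9.81 in Sham and 9.88 to 10.06 in LPS. Uqcrq of complex III differed by 0.43 (SE 0.08, adjusted p = 0.00114) and Ndufa2 of complex I by 0.43 (SE 0.09, adjusted p = 0.00185). For the 13 subunits encoded in the mitochondrial genome there were 0 calls in either direction, 0 differences above 0 and a median of -0.09. Mt-co1 was -0.02 (SE 0.08) and Mt-nd2 -0.21 (SE 0.10). At an unadjusted p under 0.05, 1 of the 13 passed in limma. The largest fall in the nuclear list, Cox7a2 at -0.84 (SE 0.34, adjusted p = 0.0927), did not pass.

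Of 73 cytosolic ribosomal protein genes, 29 were higher (39.7%, against 10.2% of all genes) and 0 lower, with 68 differences above 0 and a median of 0.17. The other 44 did not pass, and the higher count was 15 without LPS 2 or LPS 4, 16 without Sham 6 (with 1 lower) and 19 without Sham 5. Rps2 differed by 0.46 (SE 0.08, adjusted p = 0.000205) and Rpsa by 0.34 (SE 0.07, adjusted p = 0.00109), neither with overlap, and Rps27l by 0.40 (SE 0.10). Of 73 mitochondrial ribosomal protein genes, 36 were higher (49.3%) and 0 lower, with a median of 0.18, and 21 were higher without LPS 4. Mrps12 differed by 0.54 (SE 0.08, adjusted p = 9.93e-05) and Mrpl54 by 0.42 (SE 0.08, adjusted p = 0.000967). Of 35 proteasome subunits, 23 were higher (65.7%) and 0 lower, with a median of 0.19 and 34 differences above 0. That count was 14 without LPS 2 or LPS 4 and 15 without Sham 6. Psmb5, a catalytic subunit, differed by 0.32 (SE 0.07) and Psmd8 of the lid by 0.30 (SE 0.06). Of 43 genes of ribosome assembly, 2 were higher (4.65%) and 5 lower (11.6%), and with 1 library left out these counts ranged from 0 to 2 and from 2 to 6. Gnl3 (nucleostemin) was -0.28 (SE 0.07, adjusted p = 0.00865) and Rrp12 -0.23 (SE 0.06, adjusted p = 0.0159). Of 69 splicing factors, 16 were higher (23.2%) and 3 lower (4.35%), with Sf3b5 at 0.34 and Snrpf at 0.32, and 10 were higher without LPS 2 or LPS 4.

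Of 22 glycolysis genes, 8 were higher (36.4%, against 10.2% of all genes) and 0 lower, with a median of 0.10. Eno1 differed by 0.42 (SE 0.09, adjusted p = 0.00191), Tpi1 by 0.39 (SE 0.07, adjusted p = 0.00116), Pgk1 by 0.38 (SE 0.08, adjusted p = 0.00174) and Ldha by 0.37 (SE 0.09, adjusted p = 0.0085), all without overlap. Hk2, the inducible hexokinase, did not pass, at -0.19 (SE 0.07, adjusted p = 0.0667), but did without Sham 1 (adjusted p = 0.0203), and 2 of the 22 were then lower, against 1 without Sham 5, Sham 6 or LPS 3. Of 26 hypoxia targets, 2 were higher (7.69%, or 1 without Sham 6, LPS 1 or LPS 4) and 0 lower (1 without Sham 1), and the median was -0.06. Enzymes of the pentose phosphate pathway, Tkt at 0.41 (SE 0.06, adjusted p = 6.77e-05) and Taldo1 at 0.38 (SE 0.06, adjusted p = 0.000284), were among the 6 of 27 NRF2 targets that rose (22.2%), as was Txn1, thioredoxin, at 0.54 (SE 0.09, adjusted p = 0.000179). Of those targets 1 fell, or 2 without LPS 5. In the list of the unfolded protein and integrated stress response, 6 of 35 were higher (17.1%, against 10.2% of all genes) and 3 lower (8.57%, against 7.56%), with a median of 0.01. The lower count was 0 without LPS 4 and 1 without Sham 2, Sham 3, Sham 5, LPS 1, LPS 2 or LPS 5. Among the higher ones were Phgdh, of serine synthesis, at 0.55 (SE 0.08, adjusted p = 7.44e-05) and Sdf2l1, of the endoplasmic reticulum, at 0.41 (SE 0.08, adjusted p = 0.000937). Among C2H2 zinc finger genes, 41 of 331 were lower (12.4%, against 7.56% of all genes), 3 were higher and the median was -0.07. Without LPS 2 only 17 were lower, and 26 without Sham 4, Sham 5, LPS 1 or LPS 4, and 27 with median-centred libraries. Zfp69 was -0.40 (SE 0.07, adjusted p = 0.000299) and Zfp691, which rose, 0.31 (SE 0.08, adjusted p = 0.00779).

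**Figure D4:**
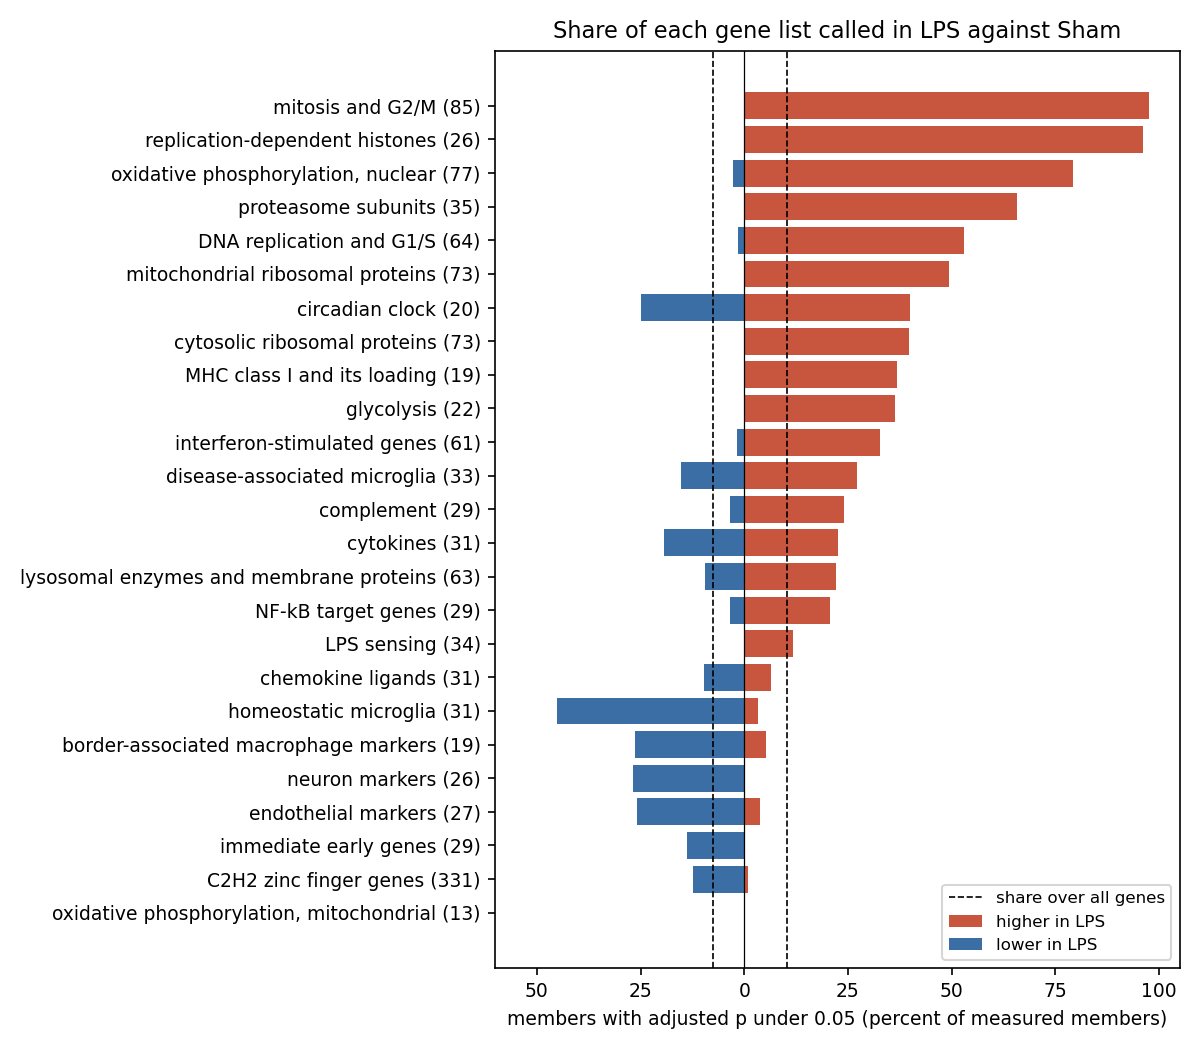
Percent of the measured members of each list (number in brackets) with an adjusted p under 0.05, higher in LPS to the right and lower to the left. Dashed lines are the shares over all genes, 10.2% higher and 7.56% lower, and mitosis, histone, nuclear oxidative phosphorylation and proteasome genes reach furthest to the right, homeostatic microglia genes furthest to the left.

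Of 34 genes of LPS sensing, 4 were higher (11.8%, near the 10.2% of all genes) and 0 lower, and the median was 0.02. Tlr4 ran from 10.24 to 10.44 with a median of 10.32 in the 6 Sham libraries, and at 10.39, 10.25, 10.36, 10.34 and 10.37 in LPS 1 to LPS 5, a difference of 0.02 (SE 0.07, adjusted p = 0.889). Its co-receptor Ly96 was -0.03 (SE 0.09, adjusted p = 0.829), the adaptor Myd88 0.10 (SE 0.05, adjusted p = 0.129) and Tlr2 -0.15 (SE 0.07, adjusted p = 0.145). The genes that rose were Tlr1, Ly86, Cd14 and Mapk14. Ly86, which encodes MD-1, a partner of the TLR4-like receptor CD180, ran from 10.53 to 10.66 with a median of 10.55 in the 6 Sham libraries, and at 11.09, 11.04, 10.87, 11.25 and 10.998 in LPS 1 to LPS 5, a difference of 0.47 (SE 0.05, adjusted p = 3.23e-06). Cd14, the LPS co-receptor, ran from 10.80 to 11.24 with a median of 10.93 in the 6 Sham libraries, and at 11.45, 11.67, 11.13, 11.90 and 11.11 in LPS 1 to LPS 5. Its groups overlapped, and the difference was 0.48 (SE 0.15, adjusted p = 0.0332), with an adjusted p between 0.0172 and 0.113 when 1 library was left out, above the threshold without Sham 1, 2, 3 or 5 or LPS 1, 2 or 4. Mapk14, the kinase p38 alpha, was 0.14 (SE 0.04, adjusted p = 0.0193) and did not pass without LPS 5 (adjusted p = 0.0502).

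Of 29 genes of NF-kB subunits and feedback, 4 were higher (13.8%, near the 10.2% of all genes) and 0 lower, with a median of 0.03. Bcl3, a nuclear co-regulator of NF-kB, ran from 7.79 to 8.15 with a median of 7.96 in the 6 Sham libraries, and at 8.67, 8.89, 8.71, 8.67 and 8.61 in LPS 1 to LPS 5, a difference of 0.73 (SE 0.10, adjusted p = 3.47e-05) or 1.66-fold. Tnip1, a partner of the inhibitor A20, was 0.25 (SE 0.05, adjusted p = 0.000555) and Irak3, which damps Toll-like receptor signaling, 0.27 (SE 0.07, adjusted p = 0.0141). Nfkb1 was 0.14 (SE 0.04, adjusted p = 0.0297), but it lost the call without any 1 of Sham 1, Sham 4, LPS 1, LPS 2, LPS 4 or LPS 5, with adjusted p values up to 0.0714. The early inhibitors Nfkbia, at 0.18 (SE 0.07, adjusted p = 0.0947), and Tnfaip3, which encodes A20, at 0.15 (SE 0.09, adjusted p = 0.255), did not pass. Nfkbia passed in 3 of 23 alternatives, Tnfaip3 in 0. Of 29 NF-kB target genes, 6 were higher (20.7%) and 1 lower (3.45%), the latter 0 without Sham 6, LPS 4 or LPS 5. Pim1, a survival kinase, ran from 11.09 to 11.21 with a median of 11.13 in the 6 Sham libraries, and at 11.83, 11.88, 11.65, 11.90 and 11.80 in LPS 1 to LPS 5, a difference of 0.67 (SE 0.07, adjusted p = 1.06e-06). Birc3, an inhibitor of apoptosis, differed by 0.48 (SE 0.09, adjusted p = 0.00109) and Bcl2a1, an anti-apoptotic relative of BCL2, by 0.36 (SE 0.07, adjusted p = 0.0018). Socs3, the feedback inhibitor of the IL-6 family, did not overlap between groups but did not pass, at 0.39 (SE 0.15, adjusted p = 0.0769). It passed in 3 of 23 alternatives.

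Of 31 cytokine genes, 7 were higher (22.6%, against 10.2% of all genes) and 6 lower (19.4%, against 7.56%), and the median was -0.02. Il1b, the central cytokine of the inflammasome axis, ran from 11.58 to 12.12 with a median of 11.89 in the 6 Sham libraries, and at 12.12, 12.33, 12.33, 12.28 and 12.51 in LPS 1 to LPS 5, a difference of 0.43 (SE 0.12, adjusted p = 0.0162). The lowest LPS value only just exceeded the highest Sham value. Tnf ran from 14.37 to 14.67 with a median of 14.48 in the 6 Sham libraries, and at 14.45, 14.32, 14.41, 14.39 and 14.40 in LPS 1 to LPS 5 and did not differ by the test, at -0.11 (SE 0.08, adjusted p = 0.359). Il6 was lower, at -0.30 (SE 0.08, adjusted p = 0.00992). Il10, the main anti-inflammatory cytokine, ran from 8.24 to 8.62 with a median of 8.49 in the 6 Sham libraries, and at 7.89, 7.81, 7.70, 7.62 and 8.05 in LPS 1 to LPS 5, that is, 1.56-fold lower at -0.65 (SE 0.13, adjusted p = 0.00214). Csf1, a ligand of CSF1R, was lower at -0.50 (SE 0.12, adjusted p = 0.00468), while the other ligand of this receptor, Il34, was higher at 0.33 (SE 0.08, adjusted p = 0.00505). Il33, an alarmin of the IL-1 family, was lower at -0.45 (SE 0.08, adjusted p = 0.000324). Within the interleukin-1 family and inflammasome list, 7 of 28 were higher (25%) and 3 lower (10.7%). Il18rap, a subunit of the IL-18 receptor, rose by 0.82 (SE 0.13, adjusted p = 0.000174) and Casp1 by 0.27 (SE 0.06, adjusted p = 0.00559). Nlrp3 was 0.03 (SE 0.07, adjusted p = 0.823), and P2rx7, the ATP receptor upstream of it, fell at -0.44 (SE 0.09, adjusted p = 0.00182).

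Of 31 chemokine ligands, 2 were higher (6.45%, against 10.2% of all genes) and 3 lower (9.68%, against 7.56%), and the higher count was 1 without Sham 1, Sham 5, LPS 1, LPS 2, LPS 3 or LPS 4. Ccl6 rose by 0.61 (SE 0.15, adjusted p = 0.00598). The 3 that fell were Ccl7, Ccl24 and Ccl2. Ccl2, which attracts monocytes, ran from 10.51 to 11.01 with a median of 10.78 in the 6 Sham libraries, and at 9.98, 9.996, 10.37, 9.76 and 10.36 in LPS 1 to LPS 5, a difference of -0.66 (SE 0.12, adjusted p = 0.00076), without overlap. Ccl24, an eosinophil chemoattractant of macrophages, was -0.72 (SE 0.11, adjusted p = 6.65e-05) and Ccl7 -0.76 (SE 0.12, adjusted p = 0.000213), the latter with Sham 1 inside the LPS range. The ligands Ccl3, at 0.00 (SE 0.07, adjusted p = 0.99), and Ccl4, at -0.19 (SE 0.13, adjusted p = 0.339), did not pass. Among chemoattractant receptors, Cxcr3, the receptor of interferon-induced chemokines, rose at 0.54 (SE 0.13, adjusted p = 0.00751), a call lost in 1 of 23 alternatives. In that list of 26, 2 were higher (7.69%) and 5 lower (19.2%), and the lower count was 0 without Sham 4, LPS 1 or LPS 2, 1 without Sham 2, 2 without Sham 1, Sham 6 or LPS 4, and 3 without Sham 5 or LPS 3. The higher count was 1 without any 1 of Sham 1, Sham 2, Sham 4, Sham 5, LPS 2, LPS 3 and LPS 5.

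Of 29 complement genes, 7 were higher (24.1%, against 10.2% of all genes) and 1 lower, the latter 0 without Sham 1, Sham 2, Sham 6, LPS 1, LPS 2 or LPS 4. Besides C3, C4a differed by 0.61 (SE 0.10, adjusted p = 0.000141) and its near-identical copy C4b by 0.60 (SE 0.10, adjusted p = 0.000176), between which reads could have been divided. C1qc, a chain of the initiating complex, rose by 0.41 (SE 0.10, adjusted p = 0.00674). Of 61 interferon-stimulated genes, 20 were higher (32.8%) and 1 lower, with 47 differences above 0 and a median of 0.18. Gbp2, an interferon-induced GTPase, ran from 10.23 to 10.58 with a median of 10.46 in the 6 Sham libraries, and at 11.40, 11.02, 10.79, 11.20 and 10.91 in LPS 1 to LPS 5, a difference of 0.63 (SE 0.09, adjusted p = 4.82e-05). Gbp4 differed by 0.55 (SE 0.07, adjusted p = 2.58e-05) and Ifi27 by 0.52 (SE 0.09, adjusted p = 0.000295). Ifit1, a classical antiviral gene, was the 1 that fell, at -0.34 (SE 0.08, adjusted p = 0.00642), and Irf1 was -0.08 (SE 0.09, adjusted p = 0.557). LPS 5 lay inside the Sham range of the list mean, and for Mx2, at 0.57 (SE 0.22, adjusted p = 0.0727), it was at 8.40 while the other LPS libraries were at 9.29 or above. The lower count of the list was 3 without LPS 1. Without LPS 5 the Mx2 difference passed (adjusted p = 0.00901) and 28 of the 61 were higher.

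The promoter of Gbp2 is shown because it carries the interferon-stimulated response element (ISRE), searched on both strands as TTTC, any 2 bases and TTTC, here in capitals. It is the window of 250 bases before the RefSeq start in GRCr8 (chr2:234005477-234005726, plus strand).
Gbp2: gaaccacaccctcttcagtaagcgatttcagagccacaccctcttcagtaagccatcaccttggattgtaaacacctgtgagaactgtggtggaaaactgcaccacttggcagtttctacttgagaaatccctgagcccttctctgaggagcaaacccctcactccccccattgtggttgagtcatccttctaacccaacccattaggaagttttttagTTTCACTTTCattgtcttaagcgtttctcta
The element was found in 59.6% of the 47 interferon-stimulated genes with a promoter in the table and in 2.83% of the measured genes with one. Among the genes called higher in LPS its share was 4.10%, and among those called lower 2.49%.

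In the list of MHC class I and its loading, 7 of 19 were higher (36.8%, against 10.2% of all genes) and 0 lower. Tapbp, tapasin, ran from 10.43 to 10.57 with a median of 10.49 in the 6 Sham libraries, and at 11.23, 11.17, 10.90, 11.04 and 10.79 in LPS 1 to LPS 5, a difference of 0.54 (SE 0.07, adjusted p = 1.1e-05). The immunoproteasome subunits Psmb9, at 0.51 (SE 0.10, adjusted p = 0.00184), and Psmb8, at 0.47 (SE 0.12, adjusted p = 0.00906), and the proteasome activator Psme2, at 0.43 (SE 0.07, adjusted p = 0.000107), were also higher. B2m, the light chain of class I, was 0.16 (SE 0.07, adjusted p = 0.145). In the class II list, 3 of 16 were higher (18.8%) and 1 lower (6.25%, against 7.56% of all genes), with a median of 0.00. Ifi30, a lysosomal thiol reductase of antigen processing, rose by 0.52 (SE 0.06, adjusted p = 2.09e-06), RT1-DOa, a chain that restrains peptide loading, fell at -0.35 (SE 0.07, adjusted p = 0.002), and Ciita, the regulator of class II transcription, was -0.14 (SE 0.15, adjusted p = 0.557).

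Of 31 homeostatic genes of microglia, 14 were lower (45.2%, against 7.56% of all genes) and 1 higher, with a median of -0.17. The list mean was 12.33 to 12.54 in Sham and 12.17 to 12.34 in LPS, with the highest LPS library, LPS 3, inside the Sham range. The count was 11 to 16 with 1 library left out. Many of these genes also stand in other lists used here, and of the 12 that do not, 4 were lower. Besides Crybb1, Siglec5, an inhibitory sialic acid receptor, ran from 11.47 to 12.06 with a median of 11.71 in the 6 Sham libraries, and at 10.98, 10.86, 10.999, 10.81 and 11.18 in LPS 1 to LPS 5, a difference of -0.76 (SE 0.12, adjusted p = 0.000164). P2ry13, a purine receptor, was -0.42 (SE 0.09, adjusted p = 0.00209) and Gpr34, a lysophosphatidylserine receptor, -0.42 (SE 0.12, adjusted p = 0.0177). P2ry12, the ADP receptor that guides microglial processes, ran from 13.89 to 14.41 with a median of 14.06 in the 6 Sham libraries, and at 13.97, 13.63, 13.90, 13.50 and 13.79 in LPS 1 to LPS 5, a difference of -0.36 (SE 0.12, adjusted p = 0.0387), with overlap, and Cx3cr1, the fractalkine receptor, was -0.17 (SE 0.05, adjusted p = 0.0308). Both calls were lost without some of the libraries (Sham 1, Sham 5, LPS 2 or LPS 5 for both, Sham 2 or LPS 4 for P2ry12, and Sham 4 or LPS 1 for Cx3cr1), with adjusted p values up to 0.116 and 0.0922. Tmem119 ran from 11.97 to 13.20 with a median of 12.57 in the 6 Sham libraries, and at 12.29, 11.87, 12.50, 11.85 and 11.97 in LPS 1 to LPS 5 and did not pass, at -0.46 (SE 0.18, adjusted p = 0.0819), but it did without Sham 3, Sham 4 or LPS 3, with an adjusted p as low as 0.0266. Csf1r was at 0.02 (SE 0.07). The 1 gene that rose was Gpr183, the oxysterol receptor, at 0.44 (SE 0.11, adjusted p = 0.00627). Of 19 markers of border-associated macrophages, 5 were lower in the same libraries (26.3%, against 7.56% of all genes), 1 was higher and 13 did not pass. Their list means overlapped (10.17 to 10.67 in Sham and 10.09 to 10.33 in LPS), and their part in this result was not tested.

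Of 41 genes of TNF, IL-6, IL-10 and TGF-beta receptors and signaling, 7 were higher (17.1%) and 8 lower (19.5%), against 10.2% and 7.56% of all genes, and the median was 0.00. Among the lower ones, Tgfbr1, a receptor of TGF-beta, was -0.34 (SE 0.09, adjusted p = 0.0117), Smad3, its effector, -0.27 (SE 0.05, adjusted p = 0.00182), and Smad7, its inhibitor, -0.34 (SE 0.05, adjusted p = 0.000111). Il6st, the shared signal subunit gp130, fell by 0.55 (SE 0.07, adjusted p = 3.14e-05), and Csf2rb, the shared beta chain of the GM-CSF, IL-3 and IL-5 receptors, rose by 0.51 (SE 0.12, adjusted p = 0.00753). Leaving out Sham 2 lowered the higher count to 4, and LPS 2 or LPS 4 the lower count to 5. Of 44 myeloid transcription factors, 6 were higher and 6 lower (13.6% each, against 10.2% and 7.56% of all genes). Runx3 rose by 0.80 (SE 0.13, adjusted p = 0.000213), Cebpb by 0.57 (SE 0.11, adjusted p = 0.00109), Batf by 0.50 (SE 0.11, adjusted p = 0.00296) and Tfec by 0.40 (SE 0.08, adjusted p = 0.00118). Sall1, which defines microglial identity, was -0.25 (SE 0.05, adjusted p = 0.00232) and Tal1 -0.31 (SE 0.05, adjusted p = 0.000236).

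Of 33 genes of disease-associated microglia, 9 were higher (27.3%, against 10.2% of all genes) and 5 lower (15.2%, against 7.56%), with a median of 0.13. Besides Tspo, Ctsz, a lysosomal carboxypeptidase, ran from 13.42 to 13.53 with a median of 13.45 in the 6 Sham libraries, and at 14.25, 14.32, 14.07, 14.37 and 13.99 in LPS 1 to LPS 5, a difference of 0.74 (SE 0.07, adjusted p = 1.11e-06). Igf1, a growth factor of this state, was lower at -0.44 (SE 0.07, adjusted p = 0.000208). Spp1, osteopontin, ran from 9.17 to 10.33 with a median of 9.98 in the 6 Sham libraries, and at 10.81, 11.28, 11.02, 11.62 and 10.17 in LPS 1 to LPS 5, a difference of 1.13 (SE 0.42, adjusted p = 0.0631) that did not pass, and it passed without LPS 5 (adjusted p = 0.0388). Apoe was 0.11 (SE 0.08, adjusted p = 0.408). The count of lower genes was 3 without LPS 4 or LPS 5. Of the 9 genes in no other list, 2 were higher and 2 lower. Among 63 lysosomal genes, 14 were higher (22.2%) and 6 lower (9.52%, near the 7.56% of all genes). Atp13a2, a polyamine transporter of late endosomes, rose by 0.45 (SE 0.07), Fuca1 by 0.37 (SE 0.05) and Gm2a by 0.35 (SE 0.06), whereas Pld3 was -0.29 (SE 0.08, adjusted p = 0.0128) and Ctsl -0.22 (SE 0.06, adjusted p = 0.0111).

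Of 32 Siglecs and inhibitory receptors, 6 were higher (18.8%, against 10.2% of all genes) and 3 lower (9.38%, against 7.56%). Clec12a, an inhibitory lectin, rose by 0.82 (SE 0.22, adjusted p = 0.0113), Lilrb3 by 0.75 (SE 0.13, adjusted p = 0.000277) and Cd22, a Siglec, by 0.64 (SE 0.11, adjusted p = 0.000481), while Havcr2, which encodes TIM-3, was -0.38 (SE 0.09, adjusted p = 0.0045). Of 37 phagocytic and Fc receptors, 6 were higher (16.2%) and 8 lower (21.6%), and 3 were higher without Sham 2, LPS 2 or LPS 4. Tyrobp, the signaling adaptor of TREM2, was 0.25 (SE 0.06, adjusted p = 0.00337), and Lrp1, a scavenger and efferocytosis receptor, -0.40 (SE 0.08, adjusted p = 0.00157). Of 31 effector enzyme genes, 7 were higher (22.6%, and 4 by the exact Wilcoxon test) and 1 lower, the latter 0 without LPS 4. Cyba, the p22phox subunit of the NADPH oxidase, was higher at 0.51 (SE 0.07, adjusted p = 1.87e-05). Itgal, the alpha chain of the integrin LFA-1, ran from 12.32 to 12.53 with a median of 12.36 in the 6 Sham libraries, and at 13.05, 12.98, 12.78, 13.14 and 12.74 in LPS 1 to LPS 5, a difference of 0.55 (SE 0.07, adjusted p = 1.1e-05). Timp1, an inhibitor of metalloproteinases, was 0.71 (SE 0.11, adjusted p = 0.000129). Slc40a1, the iron exporter ferroportin, was -0.33 (SE 0.09, adjusted p = 0.0145).

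Of 29 immediate early genes, 4 were lower (13.8%, against 7.56% of all genes) and 0 higher, 25 differences were below 0, and the median was -0.15. The 4 were Egr2, at -0.74 (SE 0.13, adjusted p = 0.00053), Klf10, at -0.61 (SE 0.09, adjusted p = 8.43e-05), Egr3, at -0.58 (SE 0.13, adjusted p = 0.00394), and Fosb, at -0.48 (SE 0.11, adjusted p = 0.00587). The lower count was 7 without LPS 5, by the exact Wilcoxon test or without the lowest 25% of genes, 8 with residual degrees of freedom not lowered and 12 in the fit of only Sham and LPS libraries. Without Sham 5 or with array weights 1 gene was higher. Jun, at -0.12 (SE 0.09, adjusted p = 0.343), and Egr1, at -0.22 (SE 0.08, adjusted p = 0.0517), did not pass, and Egr1 did without Sham 4, LPS 3 or LPS 5, with an adjusted p as low as 0.0194. These genes respond to handling and to cell isolation, and whether isolation differed between the groups was not tested.

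Of 20 circadian clock genes, 8 were higher (40.0%, against 10.2% of all genes) and 5 lower (25%, against 7.56%). Dbp, a direct output of CLOCK and BMAL1, ran from 8.36 to 8.46 with a median of 8.44 in the 6 Sham libraries, and at 9.12, 9.07, 9.10, 9.09 and 8.73 in LPS 1 to LPS 5, a difference of 0.60 (SE 0.09, adjusted p = 0.000146). Per3 ran from 9.68 to 9.94 with a median of 9.86 in the 6 Sham libraries, and at 10.21, 10.35, 10.47, 10.46 and 10.48 in LPS 1 to LPS 5, a difference of 0.58 (SE 0.08, adjusted p = 2.02e-05). Neither gene overlapped between the groups. Nr1d1, the repressor REV-ERB alpha, differed by 0.48 (SE 0.09, adjusted p = 0.000618) and Tef, another output factor, by 0.44 (SE 0.05, adjusted p = 5.99e-06). On the other side, Clock was -0.21 (SE 0.05, adjusted p = 0.0042) and Nfil3, which opposes Dbp, -0.29 (SE 0.08, adjusted p = 0.0128). Per1, which also responds to glucocorticoids, was 0.05 (SE 0.11, adjusted p = 0.774). The count of lower genes was 2 without Sham 4, LPS 2 or LPS 4 and with median-centred libraries, and 3 without Sham 1, Sham 6 or LPS 1. The time of day of each operation and cell isolation is not given in the sources used here, so a difference in sampling hour between the groups cannot be told apart from the treatment. Among 24 glucocorticoid-responsive genes, 2 were higher (8.33%, and 1 without LPS 2) and 3 lower (12.5%), with Pdk4 at -0.45 (SE 0.10, adjusted p = 0.00303) and Sgk1 at -0.45 (SE 0.10, adjusted p = 0.00462).

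Markers of other cells were measured in the same libraries. Of 30 neutrophil markers, 1 was higher (3.33%, against 10.2% of all genes; 0 without LPS 4) and 4 lower (13.3%, against 7.56%), but the lower count was 1 without Sham 2, Sham 4, Sham 6, LPS 2, LPS 3 or LPS 4 and 2 without Sham 3, Sham 5 or LPS 1, and the list mean was 5.74 to 6.16 in Sham and 5.61 to 6.11 in LPS. S100a8 was 0.26 (SE 0.31, adjusted p = 0.618) and S100a9 0.03 (SE 0.31, adjusted p = 0.96). Of 23 monocyte markers, 3 were higher (13%) and 0 lower, among them Plac8 and Itgal, and the list mean was 8.35 to 8.78 and 8.65 to 8.95. The border-associated markers Lyve1 and Stab1, at -0.44 (SE 0.10, adjusted p = 0.00414), were lower, and Cd163, which spread from 11.66 to 13.39 within Sham, was -0.51 (SE 0.26, adjusted p = 0.177). Of 26 neuron markers, 7 were lower (26.9%) and 0 higher, a count that was 2 without Sham 1, Sham 2, LPS 1 or LPS 2, 3 without LPS 3 or LPS 4, 4 without Sham 6 and 2 with median-centred libraries, and Snap25 was -0.41 (SE 0.10, adjusted p = 0.00591). Of 27 endothelial markers, 7 were lower (25.9%) and 1 higher (0 without any 1 of Sham 1, Sham 2, Sham 4, Sham 6 and LPS 1 to LPS 4), with 2 or 3 lower without Sham 3, Sham 4, LPS 2, LPS 4 or LPS 5 and 1 by the exact Wilcoxon test, with Emcn at -0.36 (SE 0.08, adjusted p = 0.00528). Astrocyte markers were higher in 5 of 21 (23.8%) and lower in 0, and the higher count was 2 without LPS 2 and 3 without Sham 1 or LPS 3. Of 21 oligodendrocyte lineage markers, 1 was higher (4.76%) and 2 lower (9.52%). The lower count was 0 without LPS 2 or LPS 4 and 1 without any 1 of the other libraries except Sham 3 and LPS 3, and the higher count was 0 without LPS 2. Erythroid and platelet markers had 1 lower gene of 17, or 0 without Sham 1, Sham 2, Sham 5, Sham 6, LPS 1 or LPS 4 and 2 without Sham 3, and Hbb was -0.92 (SE 0.42, adjusted p = 0.137). For pericytes, smooth muscle and fibroblasts, and for choroid plexus and ependyma, 0 genes of 24 and 17 were called in limma, with 1 and 1 at an unadjusted p under 0.05. In T, NK and B cell markers 1 of 19 was higher (Cd79b, at 0.52 (SE 0.10, adjusted p = 0.000861)) and 1 lower (Cd5, at -0.37 (SE 0.10, adjusted p = 0.0106)). The lower count was 3 without Sham 3 and 2 without LPS 2, and the higher count was 2 without LPS 5. The part of these cells in the other results was not tested.

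The LPS/HI and NaCl/HI libraries share no sample with Sham and LPS, so their difference measures LPS in other pups, here with HI. It gave 41 calls in limma (0.202% of all genes). Surrogate variables were removed from all libraries together, so error from that removal can enter both comparisons of a gene. Agreement in sign between the comparisons is therefore not an independent replication. Among the 2072 genes called higher after LPS alone, 90.1% were also above 0 in LPS/HI minus NaCl/HI, and among the 1534 called lower 80.2% were below 0, whereas 52.5% of all genes were above 0. The medians were 0.071 and -0.067 with HI, and 0.26 and -0.25 after LPS alone. The genes were chosen by the latter comparison, which favors larger values there, so the gap between these medians is partly fixed by the choice. In the mitosis list the median was 0.22 with HI and 0.63 without, in the histone list 0.23 and 0.89, and in nuclear oxidative phosphorylation 0.08 and 0.28. G1/S genes were at -0.0033 with HI, compared with 0.24 without. NF-kB target genes were at 0.11 with HI and 0.04 without. Endothelial markers were at 0.18 and -0.14, of opposite sign.

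The difference between the 2 LPS effects was tested as the interaction of the 4 groups, which also carries the tissue and pooling of the HI libraries. It carries injection as well, since the controls with HI were injected with saline and for Sham no injection is listed, and these cannot be told apart from HI. It passed in 220 genes (1.08%), 74 with a larger and 146 with a smaller value under HI. In the mitosis list 36 of 85 passed and in the histone list 14 of 26, but these counts were not stable. They were 4 and 2 without LPS 2, 57 in the mitosis list without Sham 5 and 23 in the histone list without NaCl/HI 4. With array weights they were 79 and 25, and with residual degrees of freedom not lowered 52 and 25. Both were 0 with the replicate block, under which 2 genes passed in all. C3 was at 0.53 with HI, -0.99 relative to LPS alone (adjusted p = 0.0474), a call that was lost in 24 of 33 alternatives, with an adjusted p up to 0.13. Tnfsf13b was at 0.07 with HI, an interaction of -0.88 (adjusted p = 0.0157), and Ctsz at 0.12, an interaction of -0.61 (adjusted p = 0.0121). Plk1 was at 0.26, an interaction of -0.62 (adjusted p = 0.0188). Of the 33 alternatives, the replicate block alone ended the calls of Tnfsf13b, Ctsz and Plk1. Bcl3, at 0.48 with HI, did not pass (interaction -0.26, adjusted p = 0.403), nor did Il1b, at 0.45 with HI (interaction 0.02, adjusted p = 0.965). The count of this test ranged from 32 without LPS 2 to 493 without NaCl/HI 4, and it was more than 1.5 times lower without any 1 of 16 of the 23 libraries and more than 1.5 times higher without 1.

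**Figure D5:**
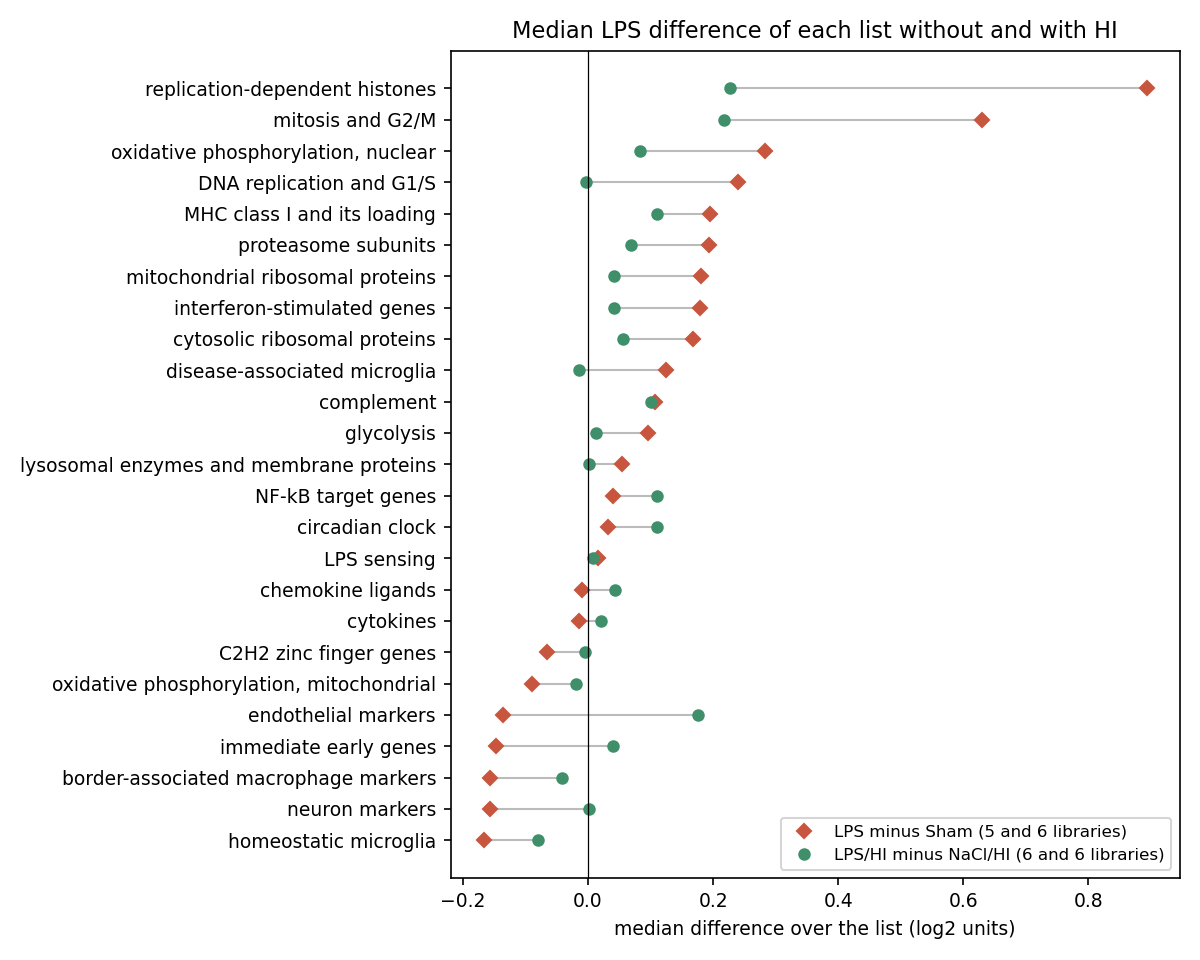
Median difference over each gene list (log2 units) for LPS minus Sham (red diamonds) and LPS/HI minus NaCl/HI (green circles), ordered by the first. The mitosis list is at 0.63 without and 0.22 with HI and the histone list at 0.89 and 0.23, while the complement list is at 0.11 and 0.10.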

How the data were processed

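Microglial RNA of 23 libraries was measured by poly(A)-selected RNA sequencing (TruSeq RNA v2, Illumina HiSeq). Per the submitters' processing notes and methods, the authors checked reads with FastQC 0.11.9 and MultiQC 1.14, quantified transcripts with kallisto 0.48.0 on mRatBN7.2, removed genes under 10 counts in all, transformed counts with DESeq2 (rlog) and removed 3 surrogate variables. The deposited values are on this log2 scale, of 20301 genes. No count model could be run on them, and depth is unknown.

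From these values, limma 3.58.1 (R 4.3.3) was fitted to 4 groups over all 23 libraries, with a variance trend. To allow for the removed variables, 16 residual degrees of freedom were used in place of 19. Benjamini-Hochberg adjustment covered all genes, and calls had an adjusted p under 0.05. In simulated data changed genes were recovered with the right sign, but false calls could exceed the aim. The removed variables were drawn at random there, with no set correlation with the groups. Where such a correlation exists, p values can be too low. Lists are described by counts and medians, beside the share over all genes. Promoters came from RefSeq (GRCr8) and were matched by symbol.

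The members and gene lists were chosen with earlier results of these data known. The rule for named genes took all genes past a fold of 2, the 20 largest rises and 20 largest falls without overlap, up to 4 called members a direction and up to 3 others in each list, and 14 preset genes of LPS signaling and microglia. The genes printed are a selection from these. Of the 458 genes that the rule named, 187 are printed and 271 are not reported here. The selection was made after their values and their stability were seen, so the printed genes are more stable than those left out (93.4% of the called ones kept their call in every alternative, against 41.7%). Alternatives were scaling, filtering, variance model, rank test, blocks, leaving out each library and a Y-linked covariate.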

Additional observations from a re-analysis of the deposited data

Results flagged for a closer look

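In 17 of 376 groups of values checked, 1 library lay far from the rest of its group, and chance alone flags about 1 group in 20. The library was above its group, as an rlog value, for Adgrg5 in Sham 1 (7.18), H2ac12 in Sham 3 (7.19), Hist1h2bc in Sham 3 (9.92), LOC120097726 in LPS 4 (9.69), Plac8 in Sham 1 (10.81), Rasgrp3 in Sham 5 (12.65), Fancd2 in LPS 4 (10.74), Csf1 in LPS 3 (11.40), Cx3cr1 in Sham 4 (15.70) and Kdm5d in LPS 1 (9.39). It was below its group for Mt-co1 in Sham 6 (17.13), Mx2 in LPS 5 (8.40), Ccl3 in LPS 4 (13.81), Timp1 in LPS 5 (8.93), Dbp in LPS 5 (8.73), Clock in Sham 1 (10.59) and Nfil3 in Sham 5 (10.44).

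The LPS difference with HI minus that without HI passed the interaction test of limma in 22 of the named genes, and all of these were negative, that is, smaller or lower with HI. Since these genes were largely named for a rise after LPS alone, this sign is partly fixed by the choice of genes. Among histone genes the value, in log2 units, was -0.81 for H3c13, -0.78 for Hist1h2bc, -0.83 for Hist1h2bg, -0.80 for LOC100910200 and -0.73 for Hist1h2ac. Among cell-cycle genes it was -0.55 for Pttg1, -0.59 for Kif22, -0.63 for Spc24, -0.62 for Plk1, -0.47 for Fancd2 and -0.52 for Asf1b. Among genes of immunity, lysosome and adhesion it was -0.99 for C3, -0.88 for Tnfsf13b, -0.57 for Tlr1, -0.41 for Tapbp, -0.47 for Ifi30, -0.40 for Ly86, -0.61 for Ctsz, -0.735 for Runx3, -0.41 for Atp13a2, -0.42 for Cyba and -0.53 for Itgal. With the replicate block 2 genes of the whole table passed this test, and without LPS 2 there were 32. Tissue, pooling and injection of the controls (saline with HI, none listed for Sham) differed between the libraries with and without HI and cannot be told apart from HI here.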

How the results depend on the processing

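The 14 genes past a fold of 2 became 196 at a fold of 1.5 and 9 after quantile normalization, and 6 to 22 with 1 library left out (6 without LPS 4, 22 without Sham 3). The 3606 calls became 2282 with the replicate block, 5170 with only Sham and LPS samples, 4956 with array weights, 4877 with residual degrees of freedom not lowered and 2395 to 3542 with 1 library left out (2395 without LPS 2). The 220 interaction calls became 666 with residual degrees of freedom not lowered, 142 without a variance trend, 2 with the replicate block, 2207 with array weights and 32 to 493 with 1 library left out (32 without LPS 2, 493 without NaCl/HI 4), so this count is the least settled. Median centring gave 48 higher and 246 lower interaction calls (16.3% higher, against 33.6%). Replicate numbers did not pair the samples in the deposited values, from which surrogate variables had been removed. That removal can take out shared structure, so this check could not decide whether samples were paired. The correlations of same-numbered deviations were 0.078, -0.057, 0.075, -0.066 and -0.056, and in 0 of 5 pairs was the sample closest to its own number. A Y-linked covariate, chosen after seeing the data and no measure of sex, left 15, 3317 and 161 calls. Of the named genes, 0 that passed and 9 that did not pass changed sign in some alternative. The calls of Cxcr3, Irak3, Ifit1, Nfil3 and Cd5 were each lost in 1 of 23 alternatives. Of the 36 named genes that did not pass, 11 passed in some alternative. The balance of higher and lower calls turned in some alternatives for 6 lists, among them 38 apoptosis genes (2 and 4, or 5.26% and 10.5% against 10.2% and 7.56% of all genes, but 4 and 3 without LPS 5), 26 adhesion molecules (2 and 5, or 7.69% and 19.2%, but 2 and 1 by the exact Wilcoxon test), chemoattractant receptors (1 higher and 0 lower without Sham 4 or LPS 2, 2 and 0 without LPS 1), oligodendrocyte markers (1 and 0 without LPS 4), cytokines (5 and 6 without Sham 1 or LPS 2) and the TNF, IL-6, IL-10 and TGF-beta list (8 and 6 after median centring). Depth was unknown, so precision rests on the number of libraries. The causes of these changes were not tested.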
